A study of Mus musculus with 8 samples.

Results

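De novo lipogenesis is the pathway by which the liver turns surplus carbohydrate into fatty acids, and 10 of its genes were examined in the livers of adult male mouse offspring. The set held 6 enzymes (Acly, Acaca, Acacb, Fasn, Elovl6 and Scd1), 3 regulators (Srebf1, Mlxipl and Thrsp) and the lipid droplet protein Pnpla3. The genes were chosen by name, as genes whose symbol was the only one given for a probe group (transcript cluster) of the array, and all 10 were found among the 22180 genes measured, each through a single cluster. The livers came from C57BL/6J males at 24 weeks of age. Offspring whose dams ate a 60% high-fat diet from birth of the litter through lactation formed the HFD PN group (n = 4), and offspring of dams kept on standard chow formed the Ctrl PN group (n = 4), PN standing for post-natal. The groups shared strain, sex, age and a chow diet of their own, were not fasted when the livers were taken, and differed in the diet of the dam, so the exposure was indirect. The sources did not say whether the 4 livers of a group came from different litters, so p-values measured the spread between these livers.

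Lipogenesis begins with citrate exported from mitochondria. ATP citrate lyase splits it to acetyl-CoA, acetyl-CoA carboxylase turns acetyl-CoA into malonyl-CoA, and fatty acid synthase builds palmitate from both. Elongation and desaturation then make the stearate and oleate that enter triglycerides. In the liver the pathway is known to be switched on after feeding, through SREBP-1c under insulin and through ChREBP under glucose, and it is known to supply part of the fat of a steatotic liver.

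The sequences upstream of the genes are shown because the enzymes are known as targets of these transcription factors. RefSeq (GRCm38.p6) held promoter entries for 9 of the 10 genes with 12 transcription starts, 3 of them for Srebf1 and 2 for Mlxipl. The 250 bases before each start were searched on both strands for an SREBP element core (TCACNCNA, a pattern chosen after these promoters had been read) and for an E-box as found within ChREBP elements, spelled CACGTG. They were also searched for the letters CCAAT (the CCAAT box). The remaining motif was the GC box, GGGCGG. The SREBP core was found before 4 of the 12 starts (9.10% of 32851 mouse promoters), the E-box before 1 (6.02%), the CCAAT box before 7 (33.8%) and the GC box before 5 (32.7%). Fasn (chr11:120824548-120824797, minus strand) held the SREBP core 128 bases before its start, with CCAAT boxes on both strands downstream of it. At the most downstream of the Srebf1 starts (chr11:60210472-60210721, minus strand) the core lay 15 bases before the start and close to a CCAAT box, and at Pnpla3 (chr15:84167566-84167815, plus strand) it lay 41 bases before the start. The upstream start of Mlxipl (chr5:135089640-135089889, plus strand) had the E-box 98 bases before it. The windows of Acaca and Elovl6 held none of these letters, from which nothing follows about the factors. Capitals mark the SREBP core, the E-box and the CCAAT box in either orientation, and a match is a match of letters only.
Fasn: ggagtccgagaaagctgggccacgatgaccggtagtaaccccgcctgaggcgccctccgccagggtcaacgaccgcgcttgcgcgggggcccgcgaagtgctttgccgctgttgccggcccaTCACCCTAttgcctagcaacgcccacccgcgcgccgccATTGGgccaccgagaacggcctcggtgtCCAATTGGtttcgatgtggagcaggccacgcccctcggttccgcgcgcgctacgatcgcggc
Srebf1: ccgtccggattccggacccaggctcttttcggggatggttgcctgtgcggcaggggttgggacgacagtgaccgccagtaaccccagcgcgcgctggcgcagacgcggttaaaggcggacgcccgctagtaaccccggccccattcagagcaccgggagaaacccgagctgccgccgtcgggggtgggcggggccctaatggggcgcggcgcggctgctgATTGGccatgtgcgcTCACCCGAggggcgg
Mlxipl: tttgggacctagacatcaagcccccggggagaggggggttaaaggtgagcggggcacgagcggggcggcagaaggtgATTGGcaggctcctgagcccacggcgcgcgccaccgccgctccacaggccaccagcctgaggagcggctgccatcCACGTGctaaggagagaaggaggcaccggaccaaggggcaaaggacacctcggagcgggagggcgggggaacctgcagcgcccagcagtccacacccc
Pnpla3: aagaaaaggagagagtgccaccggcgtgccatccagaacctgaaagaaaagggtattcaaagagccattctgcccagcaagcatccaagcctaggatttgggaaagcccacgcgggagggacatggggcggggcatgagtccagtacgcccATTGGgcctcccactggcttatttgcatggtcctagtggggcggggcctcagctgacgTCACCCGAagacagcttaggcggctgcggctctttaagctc

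All values are log2 expression from robust multi-array averaging (RMA), in which 1 unit is a doubling of the signal. Levels of different genes come from different probes and were not set against each other. The median over all clusters and arrays was 1.55. Of 11 hepatocyte markers, 10 measured 6.41 or more in every liver, whereas Ass1 measured 1.24 to 2.49. Their mean level was 9.31 to 9.74, lowest in Ctrl PN 3 and HFD PN 1. Across genes, r between any pair of the 6 closest arrays was 0.986 to 0.991, but 0.945 to 0.959 between these and HFD PN 1, and 0.969 to 0.979 between these and Ctrl PN 3. Both arrays were retained. Results for the 10 lipogenic genes that rest on them are given with and without them, whereas the companion lists were read over all 8 arrays only. In whole tissue, fewer cells of a type and less RNA per cell cannot be told apart.

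The 6 enzymes had slightly higher mean levels in HFD PN than in Ctrl PN, by 1.04-fold for Acaca to 1.33-fold for Scd1, and all 6 differences were smaller than the spread between livers. No enzyme separated the groups. Acly, which makes cytosolic acetyl-CoA, measured 4.82, 6.10, 6.54 and 6.30 in HFD PN 1 to 4 and 5.84, 6.52, 4.92 and 6.15 in Ctrl PN 1 to 4. The lowest liver of each group lay about as low as the other, and the remaining 6 livers overlapped. The group means were 5.94 ± 0.77 and 5.86 ± 0.68 (SD, n = 4 each), a log2 difference of 0.08 with a 95% interval of −0.89 to 1.06 (exact two-sided permutation p = 0.83).

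Acaca encodes the cytosolic acetyl-CoA carboxylase, whose malonyl-CoA feeds synthesis. Its levels were 3.32, 4.45, 4.47 and 4.55 in HFD PN and 3.89, 4.65, 3.73 and 4.28 in Ctrl PN, a log2 difference of 0.06 (95% interval −0.64 to 0.75, exact permutation p = 0.886). Of the HFD PN livers, 3 sat within 0.1 of each other and HFD PN 1 sat more than 1 unit below them. Acacb encodes the carboxylase of the outer mitochondrial membrane, whose malonyl-CoA is known to restrain fatty acid entry into mitochondria. It measured 2.89, 4.06, 3.96 and 4.30 in HFD PN and 3.49, 3.90, 3.12 and 3.71 in Ctrl PN, a log2 difference of 0.24 (95% interval −0.44 to 0.93, exact permutation p = 0.486). For Acacb 3 HFD PN livers lay above all 4 Ctrl PN livers and HFD PN 1 lay below all of them. Without HFD PN 1 and Ctrl PN 3 the difference was 0.40 (95% interval 0.09 to 0.72, limma adjusted p = 0.489 over all genes).

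Fasn, the synthase that builds palmitate, measured 5.08, 6.39, 6.25 and 6.43 in HFD PN and 5.47, 6.87, 5.02 and 6.01 in Ctrl PN. The highest and the lowest liver were both Ctrl PN, so the HFD PN values fell within the range of the controls. The log2 difference was 0.20 (95% interval −0.78 to 1.17, exact permutation p = 0.771). Elovl6 lengthens palmitate towards stearate. Its levels were 5.47, 7.18, 6.09 and 6.57 in HFD PN and 6.25, 6.65, 5.22 and 6.38 in Ctrl PN, a log2 difference of 0.20 (95% interval −0.71 to 1.12, exact permutation p = 0.686). HFD PN 2 was the highest liver, and without it the difference was −0.08.

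Scd1, which desaturates stearate to oleate, had the highest fold difference of the enzymes. It measured 10.21, 10.27, 10.86 and 11.22 in HFD PN and 9.98, 10.78, 9.43 and 10.73 in Ctrl PN. The top pair of livers was HFD PN and the bottom pair Ctrl PN, with the rest interleaved. The means were 10.64 ± 0.49 and 10.23 ± 0.65, a log2 difference of 0.41 (95% interval −0.37 to 1.19, exact permutation p = 0.371), which was 0.14 without Ctrl PN 3 and 0.22 without HFD PN 4. Scd1 was also the enzyme for which HFD PN 1 was closest to its group, 0.57 below the mean of the other HFD PN livers, compared with 1.14 to 1.5 below for the other 5 enzymes.

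**Figure D1:**
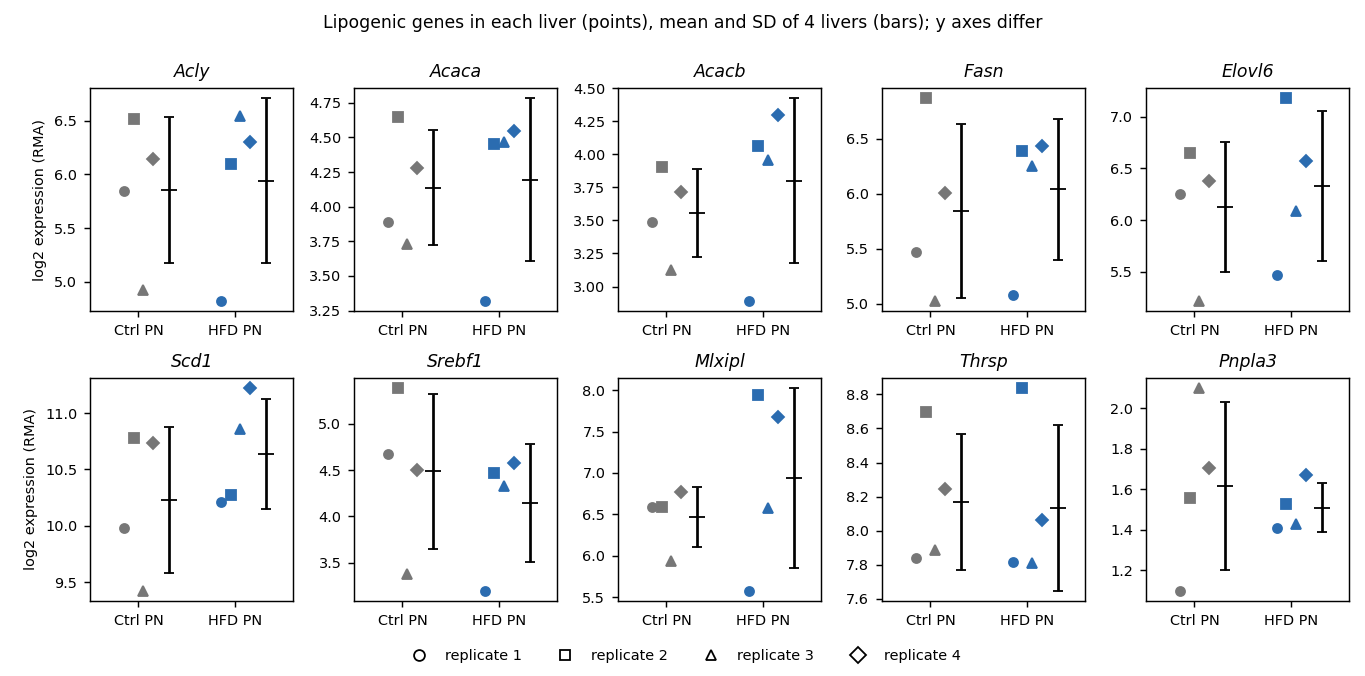
Level of each of the 10 genes in each liver (points, shaped by replicate number, HFD PN in blue and Ctrl PN in grey) with the mean and SD of 4 livers as bars, in RMA log2 expression on a separate y axis for each gene. The groups overlapped for all 10 genes, and HFD PN replicate 1 was the lowest HFD PN liver for every gene but Thrsp.

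The regulators differed in sign. Srebf1, which encodes SREBP-1, the insulin-responsive activator of the enzymes, measured 3.2, 4.47, 4.33 and 4.58 in HFD PN and 4.68, 5.39, 3.38 and 4.50 in Ctrl PN. The means were 4.14 ± 0.64 and 4.48 ± 0.83, a log2 difference of −0.34 (95% interval −1.34 to 0.65, exact permutation p = 0.457). It was the gene of the set with the most negative difference, but the size rested on single livers, being −0.0254 without HFD PN 1, −0.04 without Ctrl PN 2 and −0.71 without Ctrl PN 3. Without both HFD PN 1 and Ctrl PN 3 the difference was −0.39 (95% interval −0.87 to 0.08, limma adjusted p = 0.653). The levels of Ctrl PN 1 and Ctrl PN 2 exceeded all 4 HFD PN livers, and Ctrl PN 3 lay below 3 of them.

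Mlxipl, which encodes the glucose-responsive factor ChREBP, had the most positive difference. It measured 5.58, 7.95, 6.57 and 7.67 in HFD PN and 6.59, 6.59, 5.94 and 6.76 in Ctrl PN. The HFD PN livers ranged over more than 2 units, with HFD PN 2 and HFD PN 4 above all controls and HFD PN 1 below all of them, and their SD was 1.09 compared with 0.36 in Ctrl PN. The log2 difference was 0.47 (95% interval −0.61 to 1.55, exact permutation p = 0.486). Leaving out HFD PN 1 and Ctrl PN 3 gave 0.75 (95% interval 0.08 to 1.42, limma adjusted p = 0.561), leaving out HFD PN 2 alone gave 0.13, and leaving out HFD PN 1 alone gave 0.92. Thus the size of the Mlxipl difference rested on single livers.

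Set against each other on the same array, Mlxipl minus Srebf1 was 2.38, 3.48, 2.24 and 3.09 in HFD PN and 1.91, 1.21, 2.56 and 2.27 in Ctrl PN. This contrast of both regulators was chosen after their opposite signs had been seen, and depends on 2 probe sets, so that the groups may be compared but its level has no meaning of its own. The mean was 0.81 higher in HFD PN, the groups overlapped, and the exact permutation p was 0.143 with n = 4 each. The difference was 1.14 without HFD PN 1 and Ctrl PN 3 and 0.58 without HFD PN 2.

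Thrsp (Spot 14), a small protein induced by thyroid hormone and carbohydrate that promotes lipogenesis, measured 7.82, 8.84, 7.81 and 8.06 in HFD PN and 7.84, 8.70, 7.89 and 8.24 in Ctrl PN. The liver with replicate number 2 stood highest in both groups, and the other 6 livers lay within 0.5 of each other. The log2 difference was −0.04 (95% interval −0.65 to 0.58, exact permutation p = 0.857). Pnpla3, a lipid droplet protein whose human variant is known for its link with fatty liver, measured 1.41, 1.53, 1.43 and 1.67 in HFD PN and 1.10, 1.56, 2.1 and 1.70 in Ctrl PN. These values lay around the median of all clusters, where signal and background are hard to separate, and the log2 difference was −0.11 (95% interval −0.55 to 0.33, exact permutation p = 0.600).

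Taking the 10 genes as a set, 7 had a positive and 3 a negative difference, with a median of 0.14 beside −0.02 over all genes. This median rested on single livers, being −0.08 without Ctrl PN 3, 0.00135 without HFD PN 2, 0.33 without Ctrl PN 2 and 0.47 without HFD PN 1. None of the 10 passed an unadjusted p of 0.01 in limma, the exploratory threshold of the study, beside 0.555% of all genes. None passed an unadjusted p of 0.05, beside 3.49% of all genes, and none passed an adjusted p of 0.05, beside 0% of all genes. The groups overlapped for each of the 10, whereas they did not for 2.82% of all genes. The lowest exact permutation p was 0.371, where 4 livers against 4 can give 0.0286 at the smallest. With the limma adjusted p at 0.9999 for all 10 genes, a difference was not detectable, and the intervals left room for changes of up to 2.94-fold upward for Mlxipl and down to 0.396-fold for Srebf1.

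**Figure D2:**
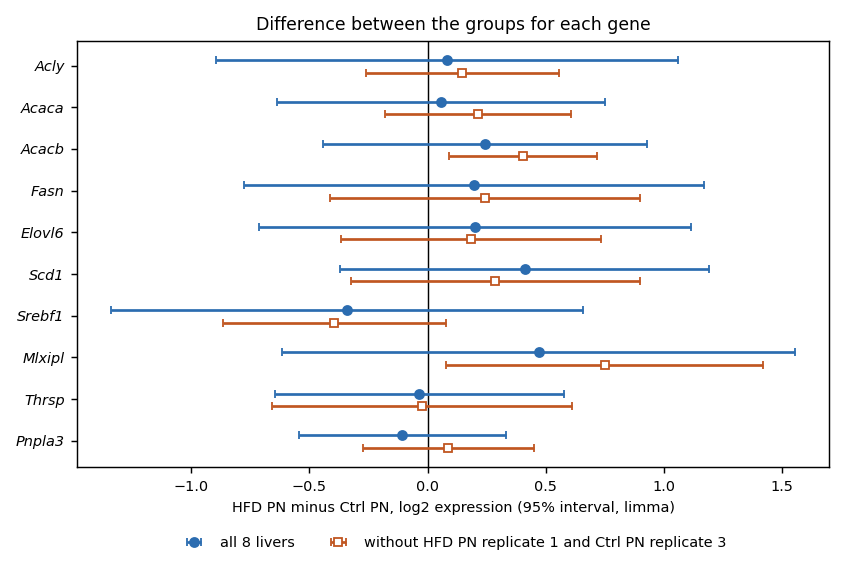
HFD PN minus Ctrl PN for each gene in log2 expression, with 95% intervals from limma, over all 8 livers (filled circles) and without HFD PN replicate 1 and Ctrl PN replicate 3 (open squares). Over 8 livers every interval spans 0, and over 6 livers those of Acacb (0.09 to 0.72) and Mlxipl (0.08 to 1.42) do not.

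The lipogenic genes varied more between livers than most genes. Their median standard error of the group difference was 0.37, compared with 0.14 over all genes and 0.18 over the 12472 genes whose mean lay above the cluster median. That median was only 1.55, so these 12472 include dim genes. Among the companion genes described below, standard errors ran from 0.08 (Usf1) to 0.82 (Pklr). A spread of this size was thus not shown to be particular to the lipogenic genes. Much of this spread was shared between the genes. For 8 of the 10 the lowest liver was HFD PN 1 or Ctrl PN 3, and for 7 of the 10 these livers held both of the lowest values, as they did for 33.7% of the genes above the cluster median. HFD PN 1 minus the mean of the other HFD PN livers had a median of −1.19 over the 10 genes, beside −0.32 over the genes above the cluster median. For Ctrl PN 3 minus the other Ctrl PN livers these medians were −0.89 and −0.13. Both arrays thus read low for genes above the cluster median, and lower for the lipogenic genes. As deviations from each gene's mean over 8 livers, the 6 enzymes averaged −0.76 in HFD PN 1 and −0.82 in Ctrl PN 3. The 6 companion lists described below averaged −0.44 to −0.96 in HFD PN 1 and −0.19 to −0.67 in Ctrl PN 3. The low reading of HFD PN 1 was therefore not particular to the lipogenic genes. HFD PN 1 also had the highest mean level over 10 neutrophil and lymphocyte markers, at 2.27 compared with 1.62 to 1.73 elsewhere. All 4 neutrophil markers were highest there, with S100a8 at 3.52 compared with 1.28 to 1.97, whereas of 6 lymphocyte markers 2 (Cd3g and Ms4a1) were highest and 2 (Cd3e and Nkg7) lowest there. The part of these markers in the low lipogenic levels was not tested.

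Without those arrays 8 of the 10 differences were positive, with a median of 0.20. Of the 10, 2 then passed an unadjusted p of 0.05 (Acacb and Mlxipl), where 8.38% of all genes did, and none passed 0.01 in limma. This comparison of 3 livers with 3 was added after the arrays had been seen to stand apart.

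**Figure D3:**
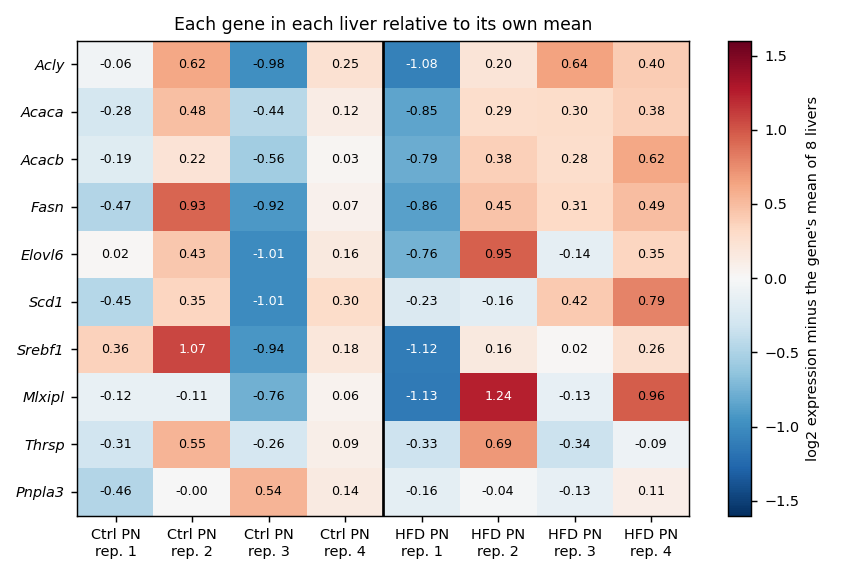
Each gene in each liver as its log2 expression minus the gene's own mean over the 8 livers, with Ctrl PN to the left of the line and HFD PN to the right. Ctrl PN replicate 3 and HFD PN replicate 1 are low across the enzymes, Srebf1 and Mlxipl, down to −1.13 for Mlxipl in HFD PN replicate 1, and the highest value is 1.24 for Mlxipl in HFD PN replicate 2.

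At the high end the livers differed from gene to gene. Elovl6, Mlxipl and Thrsp were highest in HFD PN 2, and Acaca, Fasn and Srebf1 in Ctrl PN 2. HFD PN 2 was also the liver with the highest mean level over 9 adipocyte markers, at 3.83 compared with 2.99 to 3.17 in the other 7 livers. Adipoq, Lep, Plin1, Lipe and Car3 were highest in other livers, whereas Fabp4, Retn, Plin4 and Slc36a2 were highest in HFD PN 2. Fabp4 measured 7.45 there and 3.76 to 5.69 elsewhere, and Retn 4.52 and 2.11 to 2.56. The adipokines Adipoq (1.15 to 1.5) and Lep (0.92 to 1.16) stayed below the cluster median in every liver. Without HFD PN 2 the differences of Elovl6, Mlxipl and Thrsp were −0.08, 0.13 and −0.27.

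The genes were next set against Fasn across the 8 livers, to describe how far they varied together. Acaca followed Fasn most closely of the set, with Pearson's r = 0.954 (exact permutation p = 0.000198) and Spearman's rho = 0.952 (exact permutation p = 0.00114), and r was 0.971 without the 2 livers farthest from the median of Fasn, which were again HFD PN 1 and Ctrl PN 3. Only 0.0406% of the 22179 genes correlated as highly. Acly followed at r = 0.917 (exact permutation p = 0.00144; rho = 0.786, exact permutation p = 0.0279) and Acacb at r = 0.898 (exact permutation p = 0.00278; rho = 0.833, exact permutation p = 0.0154), falling to 0.792 and 0.703 without those livers.

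For Srebf1 r was 0.850 (exact permutation p = 0.00521; rho = 0.667, exact permutation p = 0.0831), for Elovl6 0.837 (exact permutation p = 0.00898; rho = 0.857, exact permutation p = 0.0107) and for Scd1 0.778 (exact permutation p = 0.0240; rho = 0.810, exact permutation p = 0.0218). These 3 rested in part on the same livers, since r without them was 0.489, 0.476 and 0.608. Mlxipl (r = 0.699, exact permutation p = 0.0571; rho = 0.714, exact permutation p = 0.0576) dropped to 0.264 and Thrsp (r = 0.694, exact permutation p = 0.0624; rho = 0.548, exact permutation p = 0.171) to 0.634. For Pnpla3 r was −0.103 (exact permutation p = 0.817; rho = 0.0476, exact permutation p = 0.935), and it turned to 0.649 without those livers.

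Thus 6 of the 9 genes correlated with Fasn above 0.7, as did 14.5% of all genes, and 2 of the 9 at 0.9 or more, as did 0.893%. After Benjamini-Hochberg adjustment over the 22179 genes no correlation passed 0.05, the adjusted exact permutation p of Acaca being 0.119. The livers of both groups lay along a common band for Acaca, and the arrays share their processing and the array-wide shifts described above.

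**Figure D4:**
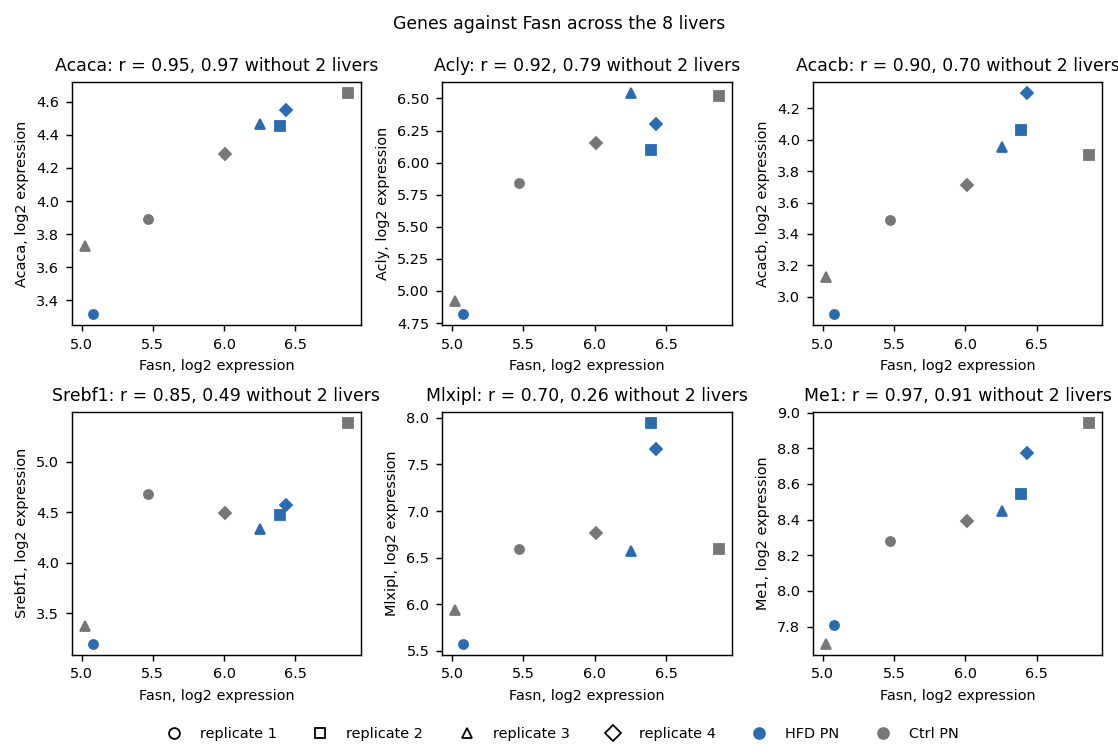
Log2 expression of 5 lipogenic genes and Me1 against that of Fasn in the 8 livers (HFD PN in blue, Ctrl PN in grey, shaped by replicate number), with Pearson's r over all livers and without HFD PN replicate 1 and Ctrl PN replicate 3. Acaca keeps a tight line (0.95 and 0.97), whereas Srebf1 (0.85 and 0.49) and Mlxipl (0.70 and 0.26) do so less once both low livers are left out.

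Of the 10 named genes most like Fasn in this sense, 2 belong to the pathway or its supply. Me1, the malic enzyme that makes NADPH for fatty acid synthesis, ranked the livers exactly as Fasn did (r = 0.967, rho = 1, and r = 0.909 without those livers), as did Crebl2, a transcription factor that is not a pathway enzyme. Me1 measured 7.81, 8.55, 8.45 and 8.77 in HFD PN and 8.28, 8.94, 7.70 and 8.39 in Ctrl PN. The other was Acaca. The rest were Myo6 (r = 0.980), a myosin motor, Hnrnph2 (0.977), an RNA-binding protein, Coasy (0.975), which completes coenzyme A synthesis, Trappc8 (0.969), Crebl2 (0.966), Mtf1 (0.955), Ddx46 (0.955) and Lemd3 (0.953). After quantile normalisation of the arrays Me1, Myo6, Coasy and Acaca were still at 0.927 to 0.967, while Crebl2 and Mtf1 were at 0.0595 and 0.0669.

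Because the enzymes varied together, each regulator and Pnpla3 was also expressed relative to the mean of the 6 enzymes in the same liver, a measure added after these values had been seen. On this scale Srebf1 measured −2.1, −1.94, −2.03 and −1.99 in HFD PN and −1.14, −1.18, −1.86 and −1.71 in Ctrl PN. All 4 HFD PN livers lay below all 4 Ctrl PN livers, but narrowly, the nearest values being −1.94 in HFD PN and −1.86 in Ctrl PN. The HFD PN livers lay within 0.2 of each other. The log2 difference was −0.54, and the exact permutation p of 0.0286 is the smallest that 4 livers against 4 allow. In the limma fit on this scale the p-value was 0.203 (adjusted p = 0.987). That fit gave every gene the same fully pooled standard error, 0.42, whereas the SDs of Srebf1 itself were 0.07 in HFD PN and 0.37 in Ctrl PN, so its p-value does not measure the spread of Srebf1. The difference ranged from −0.67 to −0.43 when single livers were left out, and was −0.64 without HFD PN 1 and Ctrl PN 3 (limma adjusted p = 0.690).

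Srebf1 was the only 1 of these 4 genes whose groups did not overlap on this scale. Of all genes, 0.275% did not overlap, 0.185% passed an unadjusted p of 0.05 in limma and none passed an adjusted p of 0.05. Subtracting the enzyme mean adds its spread to genes that do not follow the enzymes, so such genes overlap more readily. The 0.275%, compared with 2.82% before the subtraction, thus cannot show how unusual Srebf1 is. Mlxipl was 0.27 higher (exact permutation p = 0.457), Thrsp was −0.23 (exact permutation p = 0.429) and Pnpla3 was −0.31 (exact permutation p = 0.543), all overlapping. The enzyme mean itself was 0.20 higher in HFD PN, with overlapping groups, which moved the median of all genes to −0.22 on this scale. Relative to that median Srebf1 was lower by less than the −0.54 above. The 0.20 also exceeds the gap between the nearest Srebf1 values (−1.94 and −1.86), so the separation of the groups depended on the subtraction. Before it the Srebf1 difference was −0.34 and the groups overlapped (exact permutation p = 0.457).

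**Figure D5:**
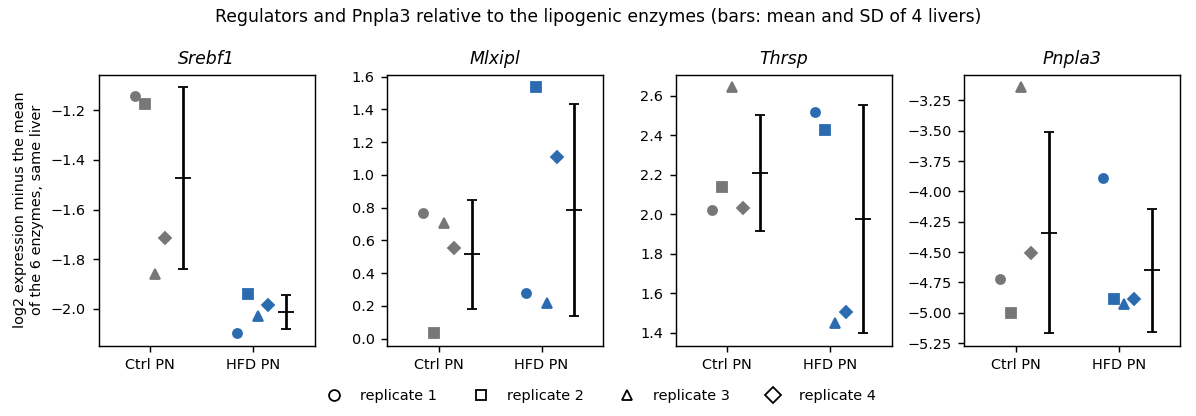
Srebf1, Mlxipl, Thrsp and Pnpla3 as log2 expression minus the mean of the 6 lipogenic enzymes in the same liver, by group, with the mean and SD of 4 livers as bars. For Srebf1 the HFD PN livers lie between −2.1 and −1.94 and the Ctrl PN livers between −1.86 and −1.14, and for the other 3 genes the groups overlap.

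Around the pathway, 6 lists of companion genes were read from the same limma fit. Of 80 genes listed, 76 were measured, 33 with a positive and 43 with a negative difference, and none passed an unadjusted p of 0.05, beside 3.49% of all genes. Among 11 genes that supply citrate, acetyl-CoA and NADPH the median difference was −0.06, from 0.24 for Pdhb to −0.20 for Pdha1, both subunits of pyruvate dehydrogenase. Among 14 partners in elongation and desaturation it was 0.01, from 0.18 for Elovl2, an elongase of polyunsaturated fatty acids, to −0.25 for Tecr, the last reductase of the elongation cycle. Neither list stood far from the median of all genes.

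Triglyceride synthesis (13 genes) had a median of −0.03, from 0.44 for Lpin2, a phosphatidate phosphatase, to −0.32 for Gpat3, an acyltransferase. Genes that process or act upstream of SREBP (15 genes) had a median of 0.01, from 0.34 for Mbtps1, the protease that first cuts SREBP, to −0.20 for Rxra, the partner of LXR. The difference of Mbtps1 had a standard error of 0.20 and an unadjusted p of 0.120 in limma.

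The partner and carbohydrate targets of ChREBP (10 genes) had a median of −0.05. G6pc, the catalytic subunit of glucose-6-phosphatase, was at 0.42 and Pklr, liver pyruvate kinase and a well-known ChREBP target, at −0.44. Pklr measured 3.39, 6.995, 7.23 and 7.02 in HFD PN and 6.46, 7.04, 5.70 and 7.19 in Ctrl PN, so HFD PN 1 was the only HFD PN liver outside the range of the controls on the low side. A mixed list of 13 genes, mainly regulators of acetyl-CoA carboxylase and brakes on lipogenesis but also holding Cidec and Pparg, which are known to promote fat storage, had a median of −0.04, from 0.66 for Cidec to −0.27 for Prkaa2, a catalytic subunit of the kinase AMPK. Cidec, a protein of lipid droplet fusion, measured 4.32 in HFD PN 2 and 1.65 to 2.81 in the other 7 livers, the same liver in which Fabp4 and Retn stood out.

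At the exploratory threshold of 0.01 limma placed 43 of all genes higher in HFD PN and 80 lower, and centring each array on its median turned this split to 70 and 38. None of the lipogenic or companion genes was among the 43 or the 80.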

How the data were processed

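Liver RNA was hybridised to Affymetrix Mouse Gene 2.1 ST arrays, 1 per liver. The deposited values are log2 expression, which the authors fitted by RMA with the oligo package in R 3.4.3. RMA as a rule subtracts background, makes the arrays' distributions alike and summarises probes, so it can damp array-wide differences. In the deposited values such differences remained. The upper quartile over genes was 2.64 in HFD PN 1 and 2.92 in Ctrl PN 3, compared with 3.155 to 3.31 in the other arrays. The annotation named 1 gene for 23521 of 41345 clusters, and 23328 of the names were matched by gene identifier. For the 1082 genes with several clusters the one with the highest mean was kept, leaving 22180 genes. Groups were compared with limma 3.58.1 (R 4.3.3; lmFit and eBayes, two-sided, Benjamini-Hochberg adjustment over all genes) and exact two-sided permutation tests. Correlations with Fasn were tested exactly over 40320 orders of the arrays. The main limma fit was tested on simulated arrays with independent genes and an equal spread on every array. That simulation held neither the shared variation nor the outlying arrays seen here.

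Members and companion lists were chosen with earlier results of these data known. The text names all members, the highest and lowest gene of each companion list and the 10 named genes most correlated with Fasn; Pklr, Me1 and Cidec values were picked for detail after being seen. Sequences are from RefSeq (GRCm38.p6). Scd1's promoter and the remaining companion genes were not analysed here. The number of arrays limits the precision.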

Additional observations from a re-analysis of the deposited data

Results flagged for a closer look

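In each of the 20 groups formed by 10 genes and 2 diets, the gap between the lowest or highest liver and its nearest neighbour was divided by the range of the group and compared with Dixon's 95% critical value for 4 samples. Chance alone passes about 1 in 20 groups, and 2 of the 20 passed. Acaca measured 3.32 in HFD PN 1, whereas the other HFD PN livers measured 4.45 to 4.55, a gap of 0.924 of the range. Fasn measured 5.08 in HFD PN 1, whereas the others measured 6.25 to 6.43, a gap of 0.870 of the range. Both came from the same array, so they are not separate events.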

How the results depend on the processing

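Over 18 alternative settings none of the 10 genes passed an unadjusted p of 0.01. Acacb and Mlxipl passed an unadjusted limma p of 0.05 with array weights (0.032 and 0.039) and without HFD PN 1 (0.0147 and 0.0177). They also did so without both HFD PN 1 and Ctrl PN 3 (0.0173 and 0.0328). Each of these settings removes HFD PN 1 or gives it less weight. In 6 settings the differences equal those reported by construction; of the 120 values from the others, 101 kept their direction and 19 changed sign, in 6 of the genes. Acacb (0.08 to 0.55 with single livers left out), Scd1 (0.14 to 0.59), Srebf1 (−0.71 to −0.0254) and Mlxipl (0.13 to 0.92) did not change sign. Leaving out single livers gave −0.23 to 0.46 for Acly, −0.0788 to 0.35 for Acaca, −0.0773 to 0.54 for Fasn, −0.10 to 0.49 for Elovl6, −0.27 to 0.14 for Thrsp and −0.28 to 0.054 for Pnpla3. Thrsp was 0.0101 with median centring and 0.0089 with array weights; Pnpla3 was 0.035 with array weights and 0.0878 without HFD PN 1 and Ctrl PN 3. The correlation of Pnpla3 with Fasn was 0.65 without those 2 arrays and 0.0213 after quantile normalisation. The 43 genes higher in HFD PN at an unadjusted p of 0.01 became 70 with median centring, 66 with quantile normalisation, 18 with dim genes left out, 21 with trended and robust variance, 241 with array weights, 28 with the methods' t-test for unequal variances and 375 without both arrays, and single livers left out gave 14 (without HFD PN 4) to 393 (without HFD PN 1). The 80 genes lower became 38 with median centring, 21 with dim genes left out, 185 with array weights, 144 with the methods' t-test (which gave 51 higher) and 121 without both arrays, and single livers left out gave 36 (without HFD PN 4) to 99 (without HFD PN 1). After Benjamini-Hochberg adjustment the methods' t-test left 1 gene at 0.05 (AU015228, lower and no lipogenic gene) and its unequal-variance form 0. The cause of these changes in count was not tested. With the replicate number as a block the genes lower were 41 and the genes higher 32, and no lipogenic call changed. Deviations of same-numbered livers correlated at −0.360, 0.297, −0.438 and 0.140, which showed no steady pairing but cannot exclude one. With the block the standard error of the difference fell for each of the 10 genes, from 0.430 to 0.425 for Acly and from 0.27 to 0.10 for Thrsp. Genes near the cluster median, such as Pnpla3, are limited by signal over background.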
